A study of Mus musculus with 3 samples.

Results

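The genes of the enamel matrix secretory phosphoproteins examined here are Amelx, Ambn, Enam, Amtn and Odam, which encode amelogenin, ameloblastin, enamelin, amelotin and the odontogenic ameloblast-associated protein. They were taken by symbol from the counts table, and all 5 were found among its 20937 listed genes. The enamel organ was dissected whole from incisors of mice at 4 weeks of age and sequenced as 3 RNA libraries, 1 for each genotype, and the sources used here do not say whether animals were pooled. Stim1 cKO was Stim1 fl/fl Cre+ with complete deletion of Stim1, Stim1 HT was Stim1 fl/wt Cre+ with partial deletion, and Stim1 Ctrl was Stim1 fl/fl Cre- without deletion. The Cre was the AmelX-iCre transgene, which is driven by the promoter of amelogenin, so the deletion is directed to cells in which 1 of the genes described here is active. Stim1 cKO and Stim1 HT carried the Cre, Stim1 Ctrl did not, and every group carried at least 1 floxed Stim1 allele. Stim1 HT and Stim1 Ctrl were both used as controls. STIM1 senses calcium in the endoplasmic reticulum and opens the store-operated calcium entry of the cell, and the comparison asked how its loss in ameloblasts bears on the matrix genes.

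Enamel is laid down by ameloblasts in stages. In the secretory stage the cells release amelogenin, ameloblastin and enamelin, which form the extracellular matrix in which the crystals lengthen. In the maturation stage this matrix is degraded and removed while the crystals thicken, and amelotin and ODAM appear in the basal lamina that attaches the ameloblasts to the enamel surface. The mouse incisor grows throughout life, so 1 enamel organ holds all stages side by side. The 5 genes belong to the proline- and glutamine-rich group of the secretory calcium-binding phosphoproteins (SCPP), a family that also holds the caseins of milk. ODAM and amelotin are also known from the junctional epithelium that seals the gum to the tooth.

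In GENCODE M21 on GRCm38, Odam (chr5:87885029-87894174), Amtn (chr5:88376108-88385916), Ambn (chr5:88455991-88468531) and Enam (chr5:88487975-88506049) lie on the plus strand of chromosome 5 within 621 kb. Odam is separated from Amtn by 482 kb, Amtn from Ambn by 70.1 kb and Ambn from Enam by 19.4 kb. Amelx (chrX:169176114-169187200) lies alone on the minus strand of chromosome X, inside the gene Arhgap6 of the opposite strand but with no shared exon. Arhgap6 had 156, 167 and 281 counts in Stim1 cKO, Stim1 HT and Stim1 Ctrl, few beside those of Amelx. No exon of the other 4 genes overlaps an exon of another gene.

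The RefSeq promoter windows (GRCm38.p6) were available for all 5 genes and are shown because the genes are set side by side as 1 family. Each stretch below runs 5′ to 3′ along the gene, from 120 bases before the start to 30 bases from it. The capitals mark TGATTGG, the reverse complement of CCAATCA, which holds the CCAAT box in the inverted direction.
Amelx (chrX:169187180-169187329, minus strand): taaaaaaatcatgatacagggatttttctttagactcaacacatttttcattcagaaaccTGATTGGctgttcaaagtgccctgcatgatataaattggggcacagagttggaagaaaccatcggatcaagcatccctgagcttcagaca
Ambn (chr5:88455871-88456020, plus strand): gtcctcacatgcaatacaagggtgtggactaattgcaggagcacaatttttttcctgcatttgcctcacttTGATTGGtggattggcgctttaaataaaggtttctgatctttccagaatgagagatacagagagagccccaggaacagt
Enam (chr5:88487855-88488004, plus strand): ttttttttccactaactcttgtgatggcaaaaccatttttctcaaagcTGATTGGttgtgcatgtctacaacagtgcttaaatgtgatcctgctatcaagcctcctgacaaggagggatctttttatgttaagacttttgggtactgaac
Amtn (chr5:88375988-88376137, plus strand): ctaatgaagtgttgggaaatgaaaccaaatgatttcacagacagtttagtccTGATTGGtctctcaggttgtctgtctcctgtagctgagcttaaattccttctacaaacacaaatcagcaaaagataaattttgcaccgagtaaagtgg
Odam (chr5:87884890-87885039, plus strand): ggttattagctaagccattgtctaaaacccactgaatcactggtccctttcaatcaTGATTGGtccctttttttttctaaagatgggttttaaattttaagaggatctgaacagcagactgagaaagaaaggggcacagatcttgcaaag
The run TGATTGG was found in 5 of 5 windows, with its first base 60 bases before the start of Amelx, 49 before Ambn, 72 before Enam, 68 before Amtn and 64 before Odam. Among 32817 RefSeq promoter windows of the same 300 bases, 3.99% held it in this direction, 7.80% held it on either strand, and 2.32% held it in this direction within the 100 bases before the start. The shorter inverted CCAAT box, ATTGG, which overlaps this run, lay within those 100 bases in 10.4% of all windows. The 7-base run was noticed while the sequences were read, so its share is a description and not a test. The TATA box TATAAA lay 31 bases before the start of Amelx and 137 before that of Enam, and 13.6% of all windows held it on either strand. The related run TTAAAT lay 30 bases before the start of Ambn, 29 before Amtn, 31 before Odam and 43 before Enam, and 13.2% of all windows held it on either strand. The core of the NFAT site, GGAAA, stood on either strand in 4 of the 5 windows and in 61.3% of all windows. The RUNX site TGTGGT was found in 1 of the 5 and in 16.8% of all, and the E-box CACGTG in 0 of the 5 and in 7.15% of all. No binding was measured, and the part of these runs in the levels of the 5 genes was not tested.

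The 3 libraries held 20216507 to 28265960 counts. In Stim1 cKO the targeted gene Stim1 was at 72.8 CPM (counts scaled to library size with TMM factors), against 129 in Stim1 HT and 186 in Stim1 Ctrl, with an edgeR adjusted p of 0.106. The labels give ameloblasts as the cell type, and the epithelial genes Krt5 and Krt14 were present in every library. The odontoblast and osteoblast list also reached a summed 33710 to 65165 CPM, so RNA of other cells was part of each sample. Genes of lacrimal and nasal glands and of photoreceptors set Stim1 cKO apart from both controls, and their values are given beside Odam. With 1 library per genotype there is no replicate, and the spread between mice of the same genotype is not known. Intervals cover counting error only. In such bulk samples fewer cells of a type and less RNA per cell cannot be told apart.

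Amelogenin, ameloblastin and enamelin RNA was lower in Stim1 cKO than in either control, amelotin RNA was near the level of 1 control, and Odam RNA exceeded both. The 5 genes took 0.489% of all counts in Stim1 cKO (95% Wilson interval 0.486 to 0.492%), against 3.06% in Stim1 HT (3.05 to 3.07%) and against 2.11% in Stim1 Ctrl (2.10 to 2.11%). The plot of levels per kb of exon shows these directions gene by gene.

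**Figure D1:**
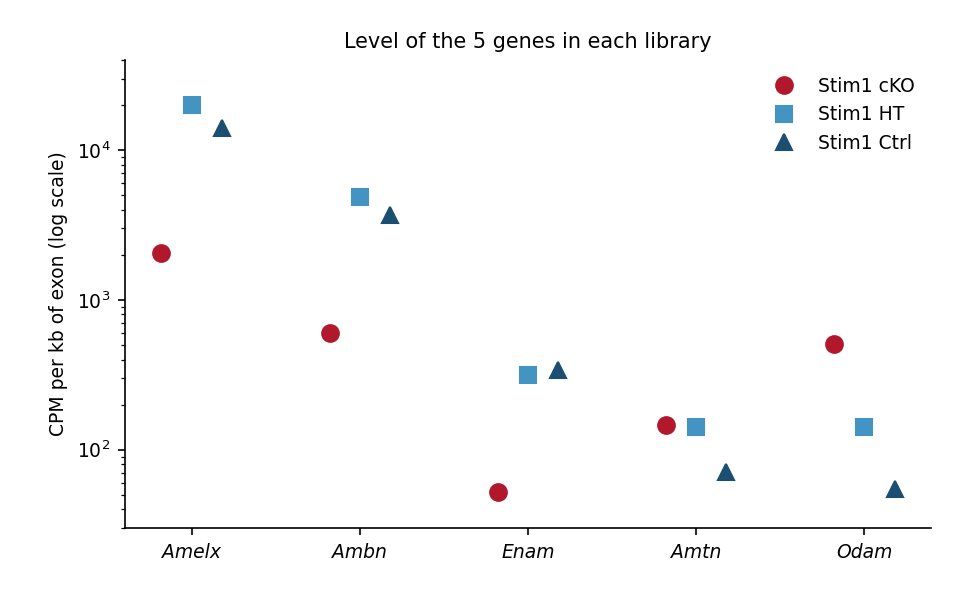
Level of each gene in each library, as TMM-scaled CPM per kb of exon on a log axis, 1 point per library. Amelx, Ambn and Enam sit lower in Stim1 cKO (2067, 599 and 52.1) than in both controls, Amtn in Stim1 cKO (146) sits beside Stim1 HT (142), and Odam in Stim1 cKO (504) sits above both controls.

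Amelx encodes amelogenin, the main protein of the forming enamel matrix. It had 49990 counts in Stim1 cKO, against 394281 in Stim1 HT and against 362520 in Stim1 Ctrl, or 2065, 20016 and 14088 CPM. Stim1 cKO was the lowest of the 3 libraries, at 9.69-fold below Stim1 HT and 6.82-fold below Stim1 Ctrl. Per kb of exon, Amelx ranked first of the 20682 listed genes with an exon length in both controls and 11 in Stim1 cKO. Amelogenin RNA was thus still among the most abundant RNAs of the Stim1 cKO library. Stim1 HT was 1.42-fold above Stim1 Ctrl, and 32.8% of all genes tested, or 17.2% of the 4566 genes that averaged at least 50 CPM in the controls, had a gap between these 2 libraries at least as large.

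Ambn encodes ameloblastin, a matrix protein of the secretory stage that also takes part in the adhesion of ameloblasts to the matrix. Its level was 1149 CPM in Stim1 cKO, against 9312 in Stim1 HT and against 7071 in Stim1 Ctrl, from 27804, 183427 and 181957 counts. The Stim1 cKO level was 8.11-fold below Stim1 HT and 6.16-fold below Stim1 Ctrl. Stim1 HT was 1.32-fold above Stim1 Ctrl, a gap reached by 41.0% of all genes tested and 27.0% of the 4566, and Stim1 cKO stood below both. Its rank per kb was 4 in Stim1 HT, 9 in Stim1 Ctrl and 43 in Stim1 cKO.

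Enam encodes enamelin, the largest and least abundant of the 3 secretory-stage matrix proteins. It was at 286 CPM in Stim1 cKO, against 1722 in Stim1 HT and against 1856 in Stim1 Ctrl, from 6927, 33915 and 47756 counts. Here the 2 controls were nearest to each other, with Stim1 HT at a log2 ratio of -0.11 to Stim1 Ctrl, and 81.7% of all genes tested and 77.0% of the 4566 differed at least as much. Stim1 cKO was 6.02-fold below Stim1 HT and 6.49-fold below Stim1 Ctrl. Per kb of exon, Enam ranked 129 and 87 in Stim1 HT and Stim1 Ctrl and 720 in Stim1 cKO.

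Amtn encodes amelotin, a protein of the basal lamina of maturation-stage ameloblasts. It had 3624 counts in Stim1 cKO, against 2853 in Stim1 HT and against 1863 in Stim1 Ctrl, or 149.7, 144.8 and 72.4 CPM. Stim1 cKO and Stim1 HT lay beside each other, at a ratio of 1.03, and both lay above Stim1 Ctrl, by 2.07-fold and 2.001-fold. The gap between the 2 controls was nearly the size of the gap between Stim1 cKO and Stim1 Ctrl, so the size of the difference of Amtn depended on the control that was used. Among the same 4566 genes, 2.08% had a gap between the 2 controls at least this large, and 13.5% of all genes tested did.

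Odam encodes a protein found with amelotin in the same basal lamina. It reached 694 CPM in Stim1 cKO, against 196 in Stim1 HT and against 75.1 in Stim1 Ctrl, from 16793, 3870 and 1933 counts. The 3 libraries were graded, with Stim1 HT 2.62-fold above Stim1 Ctrl and Stim1 cKO 3.53-fold above Stim1 HT and 9.24-fold above Stim1 Ctrl. A control gap at least as large as that of Odam was found in 1.14% of the same 4566 genes and in 8.57% of all genes tested. Per kb of exon, Odam ranked 830 in Stim1 Ctrl, 312 in Stim1 HT and 54 in Stim1 cKO.

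Stim1 cKO was tested against the grouped controls with edgeR's quasi-likelihood test, at an adjusted p under 0.01 and a fold change over 2. At this threshold 0 of the 5 genes was called, although 4 had an unadjusted edgeR p under 0.05, and 0.0749% of the 18702 genes tested were called in either direction. The edgeR log2 fold changes were -3.05 for Amelx (adjusted p = 0.0445), -2.83 for Ambn (adjusted p = 0.0401), -2.64 for Enam (adjusted p = 0.0295), 0.46 for Amtn (adjusted p = 0.511) and 2.35 for Odam (adjusted p = 0.0665). Across all genes, 5961 had an unadjusted edgeR p under 0.05. The test could draw its spread only from the 2 controls, whose genotype and Cre are not the same.

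DESeq2, run on the same genes as an alternative, called 4 of the 5. Amelx (log2 fold change -3.05 ± 0.34 SE, adjusted p = 3.40e-17), Ambn (-2.84 ± 0.32, adjusted p = 1.16e-16) and Enam (-2.65 ± 0.29, adjusted p = 3.51e-17) were lower, as were 5.1% of all genes with an adjusted p. Odam was higher (2.35 ± 0.52, adjusted p = 0.000117), as were 6.42% of all such genes, and Amtn was not called (0.46 ± 0.46, adjusted p = 0.569). The calls thus rested on the choice of test, whereas the fold changes of both tests were nearly equal.

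Amelx, Ambn and Enam were over 2-fold lower in Stim1 cKO than in each control, as were 8.23% of the genes tested. Odam was over 2-fold higher than in each control, as were 19.1% of the genes tested. By edgeR log2 fold change, 182 of the 18702 genes were at least as far down as Amelx (0.973%), 221 as Ambn (1.18%) and 269 as Enam (1.44%), whereas 1650 were at least as far up as Odam (8.82%). The 3 secretory-stage genes therefore lay nearer to the edge of all genes than Odam did. The median log2 fold change of all genes was -0.01.

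**Figure D2:**
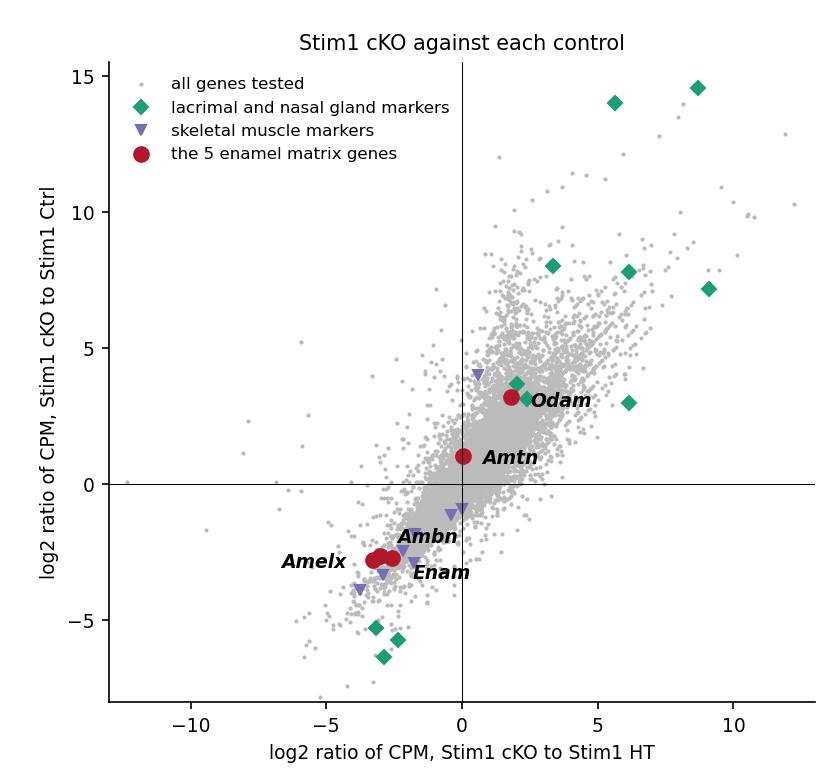
Log2 ratio of CPM of Stim1 cKO to Stim1 HT (x axis) and to Stim1 Ctrl (y axis) for each gene tested, with the 5 enamel matrix genes and 2 marker lists in colour. Amelx, Ambn and Enam form a group at -3.28 to -2.59 on the x axis, Amtn lies at 0.048, and Odam lies at 1.82 among the genes that were higher in Stim1 cKO. The axes share Stim1 cKO, so points along the diagonal are no independent agreement.

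The ratio of 2 genes within the same library does not depend on the scaling between libraries. For every 100 counts of Amelx there were 55.6 of Ambn in Stim1 cKO (95% Wilson interval 54.8 to 56.4), against 46.5 in Stim1 HT (46.3 to 46.8) and against 50.2 in Stim1 Ctrl (49.9 to 50.5). The proportion of ameloblastin to amelogenin RNA thus spanned 1.20-fold over the libraries, although the counts of each differed several-fold. The intervals do not overlap, so the differences exceeded counting error, but the spread between mice is unknown.

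Enam was more variable against Amelx, with 13.9 counts per 100 in Stim1 cKO, against 8.60 in Stim1 HT and against 13.2 in Stim1 Ctrl. The library that stood apart was Stim1 HT, and Stim1 cKO and Stim1 Ctrl were within 1.05-fold of each other. The same was seen against Ambn, where Enam had 0.249, 0.185 and 0.262 counts per count in Stim1 cKO, Stim1 HT and Stim1 Ctrl. Over the 3 libraries these ratios spanned 1.61-fold and 1.42-fold. On the log2 scale the ratios among the 3 secretory-stage genes in Stim1 cKO differed from the mean of the controls by 0.20 for Ambn to Amelx, 0.38 for Enam to Amelx and 0.18 for Enam to Ambn.

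The ratios of the late genes to Amelx differed far more between libraries. Amtn had 7.25 counts per 100 of Amelx in Stim1 cKO (7.01 to 7.50), against 0.724 in Stim1 HT and against 0.514 in Stim1 Ctrl. Stim1 cKO was 10.02-fold and 14.1-fold above these controls in this ratio, while the level of Amtn itself was 1.03-fold and 2.07-fold above them.

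Odam had 33.6 counts per 100 of Amelx in Stim1 cKO (33.0 to 34.2), against 0.982 in Stim1 HT and against 0.533 in Stim1 Ctrl. This ratio spanned 63.0-fold, the widest of the 10 pairs, and its value in Stim1 cKO was 34.2-fold above Stim1 HT. Against Enam, Odam passed from the lesser to the greater count, with 0.0405 counts per count in Stim1 Ctrl, 0.114 in Stim1 HT and 2.42 in Stim1 cKO.

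The 2 late genes did not keep a fixed proportion to each other. There were 0.964 counts of Amtn per count of Odam in Stim1 Ctrl (0.904 to 1.03). Stim1 HT had 0.737 (0.702 to 0.774), and 0.216 were counted in Stim1 cKO (0.208 to 0.224). The ratio spanned 4.47-fold, and Stim1 cKO was the lowest library.

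**Figure D3:**
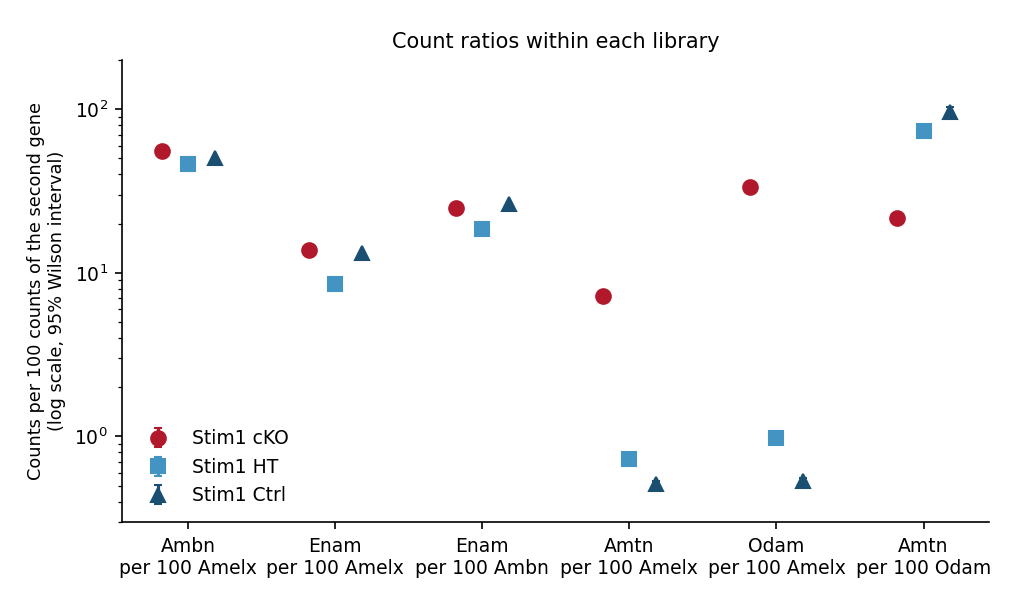
Counts of the first gene per 100 counts of the second within each library, on a log axis, with 95% Wilson intervals that are mostly smaller than the points. The ratios among Amelx, Ambn and Enam lie close together in the 3 libraries, whereas Odam per 100 Amelx lies at 33.6 in Stim1 cKO against 0.982 and 0.533 in the controls.

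Levels of different genes were compared per kb of exon. In Stim1 Ctrl the order was Amelx (14102 CPM per kb), Ambn (3685), Enam (338), Amtn (70.8) and Odam (54.6). In Stim1 HT it was Amelx (20036), Ambn (4853), Enam (314), Odam (143) and Amtn (142). The last 2 did not differ beyond counting error in Stim1 HT, at a ratio of Amtn to Odam per kb of 0.993 (0.946 to 1.04), whereas in Stim1 Ctrl the ratio was 1.30 (1.22 to 1.38).

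In Stim1 cKO the order was Amelx (2067), Ambn (599), Odam (504), Amtn (146) and Enam (52.1). Enamelin thus went from the third to the last place, and Odam came within 1.19-fold of Ambn. Amtn and Odam together made up 19.3% of the summed CPM per kb of the 5 genes in Stim1 cKO, against 1.12% in Stim1 HT and against 0.687% in Stim1 Ctrl. Within this sum, Odam accounted for 15.0%, 0.560% and 0.299%.

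**Figure D4:**
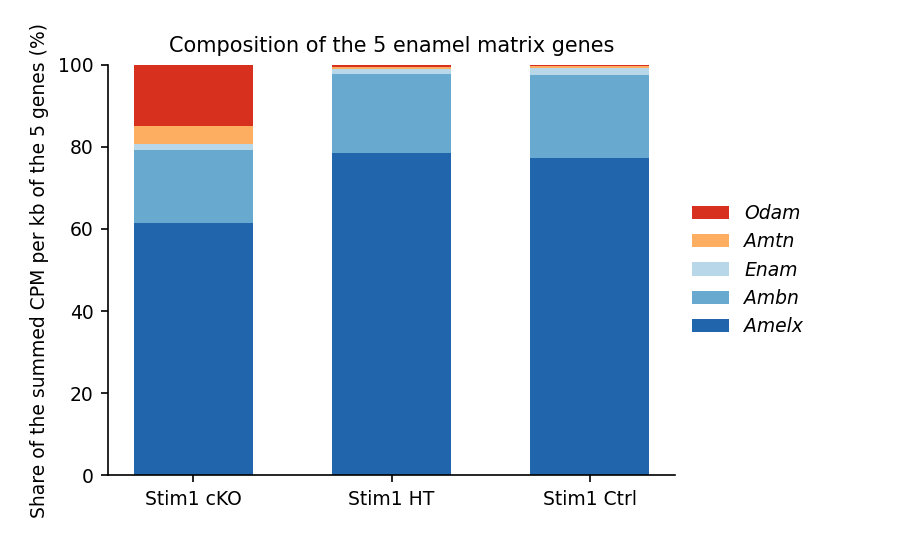
Share of each gene in the summed CPM per kb of exon of the 5 genes, as stacked bars in percent, 1 bar per library. Amelx takes 61.4% in Stim1 cKO, against 78.6% in Stim1 HT and against 77.3% in Stim1 Ctrl, and Odam takes 15.0% in Stim1 cKO and under 1% in both controls.

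The 5 genes were also set against genes of the enamel epithelium in the same library. Per count of Krt5 plus Krt14, keratins of the basal epithelium, Amelx had 0.826 counts in Stim1 cKO, against 13.7 in Stim1 HT and against 9.97 in Stim1 Ctrl. Ambn had 0.459, 6.35 and 5.003, and Enam had 0.114, 1.17 and 1.31. The 3 genes were thus further below the controls than on the CPM scale, by log2 differences from the mean of the controls of -3.82, -3.62 and -3.44. Krt5 (1310 CPM against 893 and 949) and Krt14 (1192 against 573 and 464) were not lower in Stim1 cKO. Other genes of the enamel epithelium were. Of the 8 on that list 5 lay above both controls and 3 below. The 3 were Krt17 (120 CPM against 220 and 180), Cldn1 (72.7 against 111 and 113) and, barely below Stim1 Ctrl, Krt15.

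Odam per count of these keratins was 0.277 in Stim1 cKO, against 0.134 in Stim1 HT and against 0.0531 in Stim1 Ctrl, a log2 difference of 1.72. Amtn was 0.0598, 0.0988 and 0.0512, and Stim1 cKO lay between the controls. Against Cdh1 plus Epcam, 2 epithelial adhesion genes, Amtn had a log2 difference of 0.059, so its sign turned with the reference chosen.

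Mmp20, the protease that cleaves the matrix in the secretory stage, offered a reference from the same stage, at 84.4 CPM in Stim1 cKO, against 123 in Stim1 HT and against 98.4 in Stim1 Ctrl. Per count of Mmp20, Amelx had 24.5 counts in Stim1 cKO, against 163 in Stim1 HT and against 143 in Stim1 Ctrl. Ambn had 13.6, 76.0 and 71.8, and Enam had 3.39, 14.04 and 18.9. The 3 matrix genes were thus lower in Stim1 cKO also relative to the protease that acts on them. Odam had 8.22, 1.60 and 0.763, and Amtn 1.77, 1.18 and 0.735.

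Sp6, a transcription factor of ameloblasts, was itself lower in Stim1 cKO, at 57.5 CPM against 164 and 140. Per count of Sp6 the log2 differences shrank to -1.63 for Amelx, -1.42 for Ambn and -1.24 for Enam. Per count of Dlx3, a homeobox gene of the same cells, they were -2.77, -2.57 and -2.39. Per count of Vim, a gene of mesenchymal cells, they were -1.34, -1.14 and -0.96, and Vim was also lower, at 466 CPM against 1371 and 1636. The 3 genes lay below the controls against each of these references, and the size of the difference depended on the reference.

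Among the other genes of the proline- and glutamine-rich group, Odaph, Csn1s1 and Csn3 were listed, while Scpppq1, Csn1s2a, Csn1s2b and Csn2 were not. With the 5 genes, 8 of the 12 were tested, and edgeR called 0. DESeq2 called 2 higher (Odam and Odaph) and 4 lower (Amelx, Ambn, Enam and Csn3), against 6.42% of all genes higher and 5.1% lower. Most of these calls are those of the 5 genes given above. Of the 3 tested beside the 5 genes, only Odaph and Csn3 were called, in opposite directions, and Csn1s1 had no DESeq2 adjusted p. Odaph, which encodes a phosphoprotein of enamel mineralization, had 610 counts in Stim1 cKO, against 36 in Stim1 HT and against 11 in Stim1 Ctrl. It was graded over the libraries in the same order as Odam, with log2 ratios of Stim1 cKO of 3.79 to Stim1 HT and 5.88 to Stim1 Ctrl. Csn3, the gene of kappa-casein, was at 19.0, 82.4 and 44.5 CPM, lowest in Stim1 cKO. Csn1s1 stayed under 1 CPM in every library.

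The other pathway lists are read against the same shares of all genes, 6.42% called higher and 5.1% lower by DESeq2 and 0.0749% called by edgeR, and against 19.1% and 8.23% over 2-fold higher and lower than both controls. The list of acidic SCPP genes of bone and dentin, in which Sparcl1 was also counted, had a median log2 fold change of -1.24. Of its 6 genes tested DESeq2 called 3 lower (Spp1, Dmp1 and Mepe) and edgeR 0. Spp1, which encodes osteopontin, was at 251 CPM in Stim1 cKO against 1042 and 1780, whereas Dspp, a gene of dentin matrix, was at 1264 against 792 and 792. In the list of matrix processing and phosphorylation edgeR called 0 of 7, and DESeq2 called 0 higher and 1 lower, Fam20c, the kinase that phosphorylates secreted matrix proteins, at 31.9 CPM against 76.4 and 74.1. Klk4, the protease of the maturation stage, was at 29.0, 30.2 and 12.7 CPM, so that Stim1 cKO and Stim1 HT lay together above Stim1 Ctrl as for Amtn. Wdr72, a gene of vesicle transport in ameloblasts, was graded like Odam, at 17.3, 4.67 and 2.10 CPM. The median of this list was -0.29.

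The ameloblast attachment list, which holds the genes of the basal lamina and hemidesmosome in which amelotin and ODAM lie, had a median of -0.65. Neither test called any of its 8 genes at the threshold, and 3 lay above both controls and 5 below. Beside the higher Odam, Itgb4 was at 104 CPM in Stim1 cKO against 67.2 and 73.3, Col17a1 at 196 against 154 and 160, and Itga6 at 174 against 129 and 172. The laminin chain genes Lama3 and Lamb3 were at 70.3 CPM against 113 and 110 and at 88.9 against 147 and 128. Of 11 maturation-stage transport genes edgeR called 0 and DESeq2 called 2 higher, Car6 and Slc5a8, and the median was 0.49. With Slc24a4, Slc34a2 and Cftr, 5 of the 11 were over 2-fold higher than both controls and 0 over 2-fold lower. By direction alone, 6 of the 11 lay above both controls and 4 below. The 4 were Car2 (42.7 CPM against 79.1 and 119), Alpl (188 against 313 and 368), Slc4a2 and Cnnm4. Car6, which encodes a secreted carbonic anhydrase also made by salivary glands, had 5613, 194 and 83 counts, and Slc5a8 had 1077, 216 and 82. Of 11 ameloblast transcription factors edgeR called 0 and DESeq2 called 2 higher (Runx1 and Bcl11b) and 1 lower (Sp6), with a median of 0.14. Of 8 enamel epithelium genes edgeR called 0 and DESeq2 called 1 higher, Krt14, with a median of 0.25.

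Markers of other cell types also differed between the libraries, and their counts are read against 19.1% of all genes over 2-fold higher than both controls and 8.23% over 2-fold lower. Beside the higher Odam, 8 of 11 lacrimal and nasal gland genes exceeded both controls by over 2-fold in Stim1 cKO and 3 were over 2-fold lower, and their summed level was 11282 CPM in Stim1 cKO, against 1005 in Stim1 HT and against 597 in Stim1 Ctrl. Bpifb9b (3202, 63.6 and 0.194 CPM), Muc5b (2397, 236 and 9.17 CPM) and Bpifa1 (1631, 307 and 184 CPM) were graded over the libraries in the order of Odam, as were 6 of the 8. Obp1a (970, 13.6 and 124 CPM) and Obp1b (413, 0.762 and 2.88 CPM) were lowest in Stim1 HT instead, and the 3 lower genes, Scgb2b2, Scgb1b2 and Lpo, were graded the opposite way. Of 9 salivary gland genes tested, 4 were over 2-fold higher (Amy1, Prol1, Muc19 and Aqp5) and 1 over 2-fold lower (Pip), and their sum was 358, 676 and 96.7 CPM. The most abundant of them, Dcpp1 (91.5, 326 and 8.08 CPM), Dcpp2 (90.4, 192 and 2.60 CPM) and Bpifa2 (9.38, 119 and 15.7 CPM), were highest in Stim1 HT. All 6 photoreceptor genes tested were over 2-fold higher, edgeR called 3 of them, and their sum was 972, 1.88 and 1.55 CPM. In Stim1 HT and Stim1 Ctrl each of them had 2 to 23 counts, so most passed the filter only through Stim1 cKO. That all of them were higher was thus largely set by the filter and is not support. Pde6b, Crx and Rcvrn of the same list were not listed in the counts. Gnat1 reached 177 CPM in Stim1 cKO and Sag 109. No listed marker was at 0 in any library, as the table holds only genes with a count in each. The part of these tissues in the level of Odam was not tested.

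Beside the lower Amelx, Ambn and Enam, 5 of 8 skeletal muscle genes were over 2-fold lower (Acta1, Ckm, Myh2, Actn3 and Tnnt3) and 0 over 2-fold higher, with sums of 4577, 15250 and 19874 CPM. Of the 8, 7 lay below both controls and 1, Myh4, lay above both, at 473 CPM against 318 and 29.1. Acta1 was at 973 CPM against 7398 and 9791, Tnnt3 at 896 against 2980 and 3174, and Ckm at 460 against 2060 and 2542. Of 7 fibroblast genes 4 were over 2-fold lower (Vim, Pdgfra, Col3a1 and Fn1) and 0 higher, with sums of 4422, 10128 and 15125 CPM, Col3a1 being at 2636 CPM against 6473 and 10644 and Fn1 at 202 against 638 and 1034. Of 9 odontoblast and osteoblast genes 2 were over 2-fold lower (Dmp1 and Mepe) and 0 over 2-fold higher, with sums of 33710, 42619 and 65165 CPM. In this list 6 genes lay below both controls and 1, Dspp, lay above both, at 1264 CPM against 792 and 792. Col1a1 was at 21092 CPM against 22640 and 37268, Col1a2 at 10126 against 17292 and 25111, and Ibsp at 691 against 1079 and 1375. The part of these tissues in the levels of the 3 genes was not tested.

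Genes with patterns like those of the 5 genes were sought among the 14977 genes whose mean count was at least 50, by the largest difference over the 3 log2 ratios between libraries. For Amelx they were Plin1 (0.25), Ambn (0.26) and Crtac1 (0.31), so Ambn was second of all genes. For Ambn they were Crtac1 (0.10), Mylpf (0.14) and Traf3ip3 (0.15), and Amelx followed at 0.26 with 6 genes nearer, Ambn itself included. Enam was matched by Clec3b (0.044), Impa2 (0.054) and Myod1 (0.065). Ambn was further from Enam, at 0.51 with 102 genes nearer, and Amelx at 0.69 with 186 nearer, Enam itself included. Amtn was matched by Tma7 (0.042), Cib2 (0.054) and Gm9493 (0.060), and Odam by Phf21b (0.056), Kif9 (0.072) and Gm34294 (0.077). With 3 libraries a pattern is only 2 independent ratios, and many genes share it. The largest difference between Amtn and Odam was 2.16, and 2132 genes, Odam itself included, were nearer to Odam than Amtn was.

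The 4 genes on chromosome 5 were set beside their neighbours. From 200 kb before Odam to 200 kb past Enam the annotation has 22 protein-coding genes, of which 12 were listed. Odam (log2 ratio of Stim1 cKO to Stim1 Ctrl 3.21) and Enam (-2.70), at the ends of the cluster, differed in opposite directions, with Amtn (1.05) and Ambn (-2.62) between them. Relative to Stim1 Ctrl the sign thus turned between Amtn and Ambn, which lie next to each other 70.1 kb apart.

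The neighbours followed no single direction. Csn3, which starts 40.6 kb after the start of Odam, was lower in Stim1 cKO, at a log2 ratio to Stim1 Ctrl of -1.22. Cabs1 had 486 counts in Stim1 cKO against 4 and 1, and the antisense RNA BC051076 had 22386 against 70 and 23. Jchain, the joining chain of secreted antibodies, which lies past Enam, had 765 against 6 and 2. Utp3, a gene of ribosome assembly beyond it, was at 37.5 CPM against 43.9 and 47.6. This window was chosen by position after values had been seen.

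**Figure D5:**
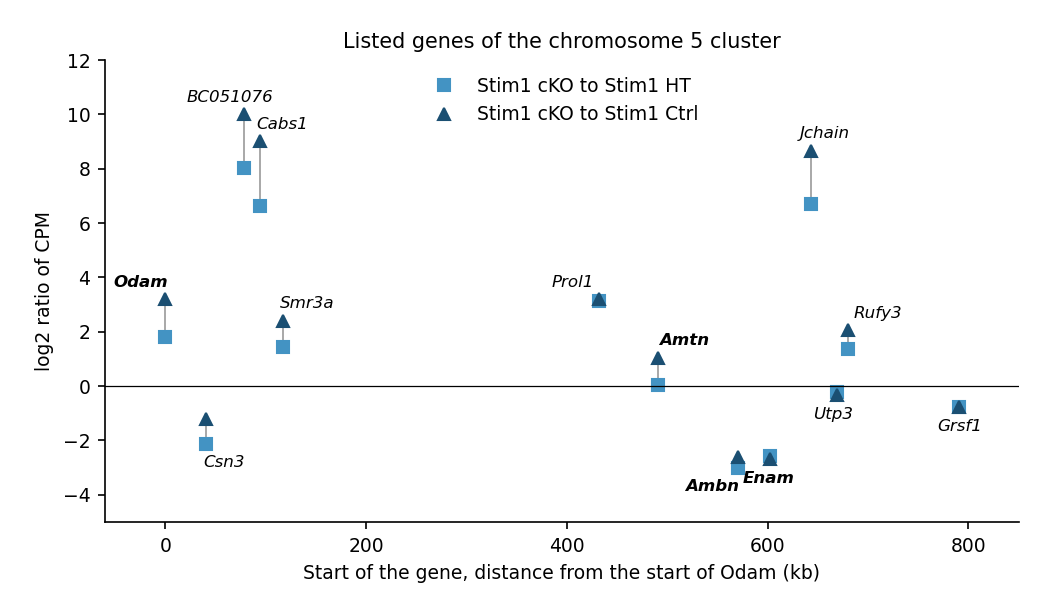
Log2 ratio of CPM of Stim1 cKO to Stim1 HT (squares) and to Stim1 Ctrl (triangles) for the 13 listed genes of the window, by the distance of their start from the start of Odam in kb. Odam lies above 0 at the left end, Amtn at 0.048 and 1.05, and Ambn and Enam below -2.5, with neighbours such as Jchain and Csn3 on either side of 0.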

How the data were processed

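RNA of the incisor enamel organ was measured in 3 libraries, 1 for each genotype. The authors trimmed the reads, aligned them with STAR and deposited raw counts per gene symbol, without normalization. The genome build, annotation, counting tool and strand setting are not given in the sources used here, and the methods name a NEBNext kit but the labels a SMARTER kit. The smallest count is 1, so only genes with a count in every library are listed, and a gene that lacked a count in even 1 library is missing. Dates stood in place of 25 symbols and 2 symbols were repeated, and such rows stayed in the tests.

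The libraries of Stim1 cKO, HT and Ctrl held 21496136, 20216507 and 28265960 counts, and 3 counts correspond to 0.124, 0.152 and 0.117 CPM. Stim1 cKO was tested against both controls in edgeR 4.0.16 (R 4.3.3) with TMM factors, filterByExpr (18702 genes), the quasi-likelihood test and Benjamini-Hochberg adjustment over all genes tested. The residual degrees of freedom were 1. Genes were called at an adjusted p under 0.01 and a fold change over 2, thresholds that the authors used with DESeq2. DESeq2 1.42.0 was run as an alternative, with other scalings, filters, thresholds and denominators and with each control left out. Ratios between genes were taken on counts within a library, with 95% Wilson intervals, and levels per kb on exon lengths from GENCODE M21, in which 20682 listed symbols were found once. Promoter sequences came from RefSeq on GRCm38.p6. Python 3.11.15, pandas 2.3.3, scipy 1.17.1 and matplotlib 3.10.9 were used.

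The genes named were the 5 genes, the 3 genes most like each, the 3 of each marker list with the highest level in any library, and Krt5, Krt14, Vim and Stim1. Any gene of the pathway lists could be named. Not all genes that this rule allows are reported here. Arhgap6, the neighbours on chromosome 5 and all further marker genes were named after values were seen, and the use of Mmp20, Sp6, Dlx3 and Vim as denominators was chosen then. The 5 genes and all lists were chosen with earlier results of these data known.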

Additional observations from a re-analysis of the deposited data

How the results depend on the processing

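DESeq2 called 4 of the 5 genes in place of 0, against 5.1% of all genes called lower and 6.42% higher. Its log2 fold changes were -3.05 for Amelx, -2.84 for Ambn, -2.65 for Enam and 2.35 for Odam. An adjusted p under 0.05 in edgeR gave 3, Amelx, Ambn and Enam. The share of all genes at that threshold is not given here, so this count is not read as a result about the 5 genes. Over 9 alternatives the log2 fold change ranged from -3.28 to -2.77 for Amelx, -3.02 to -2.58 for Ambn, -2.70 to -2.39 for Enam, 0.048 to 1.05 for Amtn and 1.82 to 3.21 for Odam, with no change of sign. The lower and upper values of adjusted p were 3.40e-17 and 0.0751 for Amelx, 1.16e-16 and 0.0634 for Ambn, 3.51e-17 and 0.0389 for Enam, 0.382 and 0.569 for Amtn, and 0.000117 and 0.0791 for Odam.

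With library size only, Stim1 HT had a log2 ratio to Stim1 Ctrl of 0.60 for Amelx, 0.50 for Ambn, -0.010 for Enam, 1.10 for Amtn and 1.49 for Odam, and with the size factors of DESeq2 (RLE) of 0.46, 0.35 and -0.15 for the first 3. Per Cdh1 plus Epcam, the log2 difference was -3.31 for Ambn, -3.13 for Enam and 0.059 for Amtn, whose sign turned. Amtn per Krt5 plus Krt14 ranged from -0.72 without Stim1 Ctrl to 0.22 without Stim1 HT. The causes were not tested.

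Over all genes edgeR called 14, against 15 with RLE, 138 with upper-quartile scaling (125 higher and 13 lower), 6 with library size only, 18 with scaling without the 5 genes and mitochondrial genes, 907 without a filter (687 higher and 220 lower) and 6 at a mean of at least 50 counts. DESeq2 called 1987. Library size and upper-quartile scaling moved the median log2 fold change of all genes to 0.25 and 0.12. With 1 control left out, 1 library stood against 1 and no test was made. No paired analysis was possible because each genotype had 1 library.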
